A study of Mus musculus with 12 samples.

Results

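Imprinted genes are expressed mainly or only from the copy inherited from 1 parent. A list of 48 mouse imprinted genes outside the *Dlk1*-*Dio3* region was followed here in the liver of mouse fetuses just before birth, with and without the nuclear receptor PPARα. The list held 24 maternally expressed genes, 23 paternally expressed genes and *Gnas*, whose active copy depends on the transcript. Of the 48 genes, 41 had a probeset that carried their symbol alone, and each of these had 1 such probeset. They comprised 21 maternally and 20 paternally expressed genes. *Gnas*, *Snrpn* and *Ube3a* lay only on probesets that carried several symbols, and no probeset was named for *H19*, *Kcnq1ot1*, *Slc22a3* or *Zrsr1*. No value is given for these genes.

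Whole livers came from *Ppara*-/- (KO_E19.5, 6 livers) and *Ppara*+/+ (WT_E19.5, 6 livers) fetuses at embryonic day E19.5, delivered by cesarean section. Both genotypes were born to heterozygous parents, which the labels describe as SV129 mice and the study's methods as kept on C57BL/6. The deletion is germline and present in every tissue. RNA of each liver was hybridized to 1 array that measures whole transcripts, and levels are log2 values from RMA, which subtracts background, brings the arrays to a common distribution and combines the probes of each probeset. Differences are *Ppara*-/- minus *Ppara*+/+, so that 1 unit is a doubling. The livers of a genotype came from several litters and some shared a litter, which the p-values do not allow for.

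PPARα is activated by fatty acids and switches on genes of fatty acid breakdown in the liver, where it is best known for the response to fasting and to suckling. Imprinting rests on DNA methylation laid down in the egg or the sperm at control regions, and several neighbouring genes usually answer to 1 such region. Many imprinted genes control growth before birth. As a rule, those active on the paternal copy, such as the growth factor gene *Igf2*, favour growth, and those active on the maternal copy, such as the cell cycle inhibitor gene *Cdkn1c*, restrain it. The arrays add up both parental copies, so that no value here says which copy was active. In whole liver, a change in the number of cells of a type cannot be told apart from a change in RNA per cell.

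*Ppara* itself was lower by 1.01 on the log2 scale in *Ppara*-/- livers (9.66 to 9.94) than in *Ppara*+/+ livers (10.71 to 10.95), with no overlap (limma adjusted p = 3.6e-08). This p comes from limma, a linear model per gene that shares information on the spread between genes, and is adjusted over all 19938 genes measured. Genes with an adjusted p under 0.05 are called higher or lower. Which part of *Ppara* its probes cover was not examined. The X-inactivation and Y-linked transcripts marked 1 *Ppara*-/- liver (mouse 2) and 3 *Ppara*+/+ livers (mice 2, 3 and 4) as male and the other 8 livers as female. The liver's own markers did not differ in a called way, with 0 of 9 hepatocyte markers called and their mean between 12.65 and 12.72 in *Ppara*-/- livers and between 12.60 and 12.68 in *Ppara*+/+ livers. None of the 9 erythroid, 8 endothelial, 10 granulocyte, 4 megakaryocyte or 4 bile duct markers was called. Of 12 stromal markers, *Reln* was higher and *Des* lower. Of 10 macrophage markers, *Csf1r* and *Cd5l* were higher, beside 3.42% of all genes. The difference was positive in 6 of the 10, beside 53.5% of all genes, and differences ran between -0.25 and 0.40. The mean of the list ran between 9.22 and 9.41 in *Ppara*-/- livers and between 9.19 and 9.30 in *Ppara*+/+ livers.

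*Slc22a18*, *Peg10* and *Trappc9* were higher in *Ppara*-/- livers by 0.43, 0.39 and 0.38 on the log2 scale, and no imprinted gene of the list was lower. *Slc22a18* and *Trappc9* are listed as maternally expressed and *Peg10* as paternally expressed. The remaining 38 genes were not called at an adjusted p of 0.05, among them *Cdkn1c*, whose difference of 1.02 was the largest of the list and also one of the most uneven between livers.

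Of 19938 genes, 682 (3.42%) were higher and 761 (3.82%) lower, so that 3 of 41 imprinted genes (7.32%) were higher beside 3.42% of all genes, and 0 were lower beside 3.82%. The 2 genotypes did not overlap in 3 imprinted genes that were higher (*Slc22a18*, *Peg10* and *Igf2*), beside 260 of all genes (1.3%), and in 0 that were lower, beside 456 of all genes (2.29%). With 3 imprinted genes called, these shares are a description. The median difference of the 41 genes was 0.02, against 0.01 for all genes, and the median size of the difference was 0.09, against 0.07. The difference was positive in 25 of the 41 genes (61.0%), against 53.5% of all genes. Without adjustment, p was under 0.05 in 14 genes, 9 higher and 5 lower (34.1%, against 20.9% of all genes).

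Of 21 maternally expressed genes, 2 were higher, 12 had a positive difference and the median was 0.02. Of 20 paternally expressed genes, 1 was higher, 13 had a positive difference and the median was 0.03. The median size of the difference was 0.10 and 0.07, differences ran between -0.16 and 1.02 and between -0.24 and 0.39, and unadjusted p was under 0.05 in 8 maternally and 6 paternally expressed genes. The difference between the parental classes was not tested. The list was also divided by whether a gene was taken to be imprinted in the fetus at large or chiefly in the placenta, the brain or another restricted setting. Of 25 measured genes imprinted in the fetus at large, 20 had a positive difference, with a median of 0.08 and 2 called. Of 16 with restricted imprinting, 5 had a positive difference, with a median of -0.02 and 1 called (*Trappc9*). This division was made from general knowledge, with earlier results of these data known, and was not tested either. Of all genes, 53.5% had a positive difference, 3.42% were higher and 3.82% lower. For 35 of the 41 genes the 95% interval of the difference lay within 0.5 log2 units of 0 on both sides, and the exceptions were the 3 called genes with *Cdkn1c*, *Phlda2* and *Igf2r*. The interval lay within these bounds for 16 of 21 maternally and 19 of 20 paternally expressed genes.

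**Figure D1:**
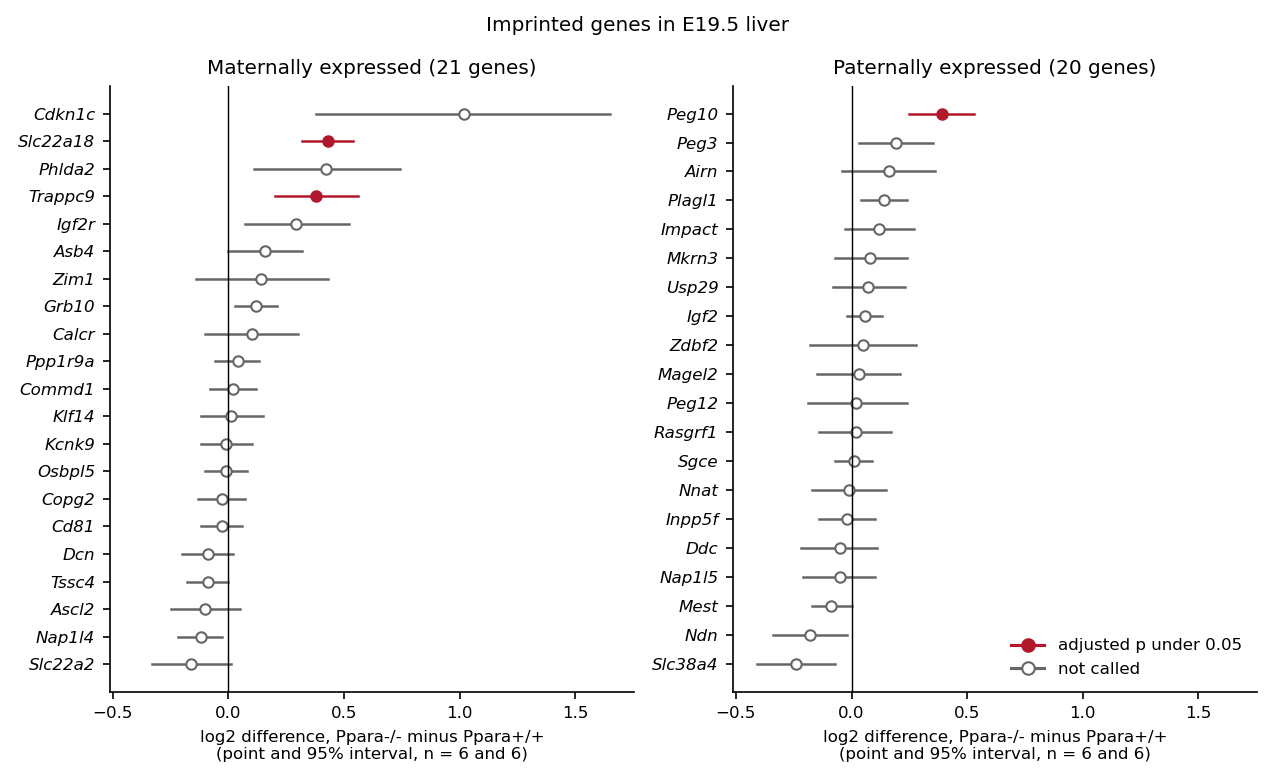
Difference in log2 signal, *Ppara*-/- minus *Ppara*+/+, for the 41 measured imprinted genes, in order of size, with 95% intervals (6 livers of each genotype). Filled red points are the genes called at an adjusted p under 0.05. *Slc22a18*, *Peg10* and *Trappc9* were called, and *Cdkn1c* had the largest difference, 1.02, with the widest interval, 0.38 to 1.65.

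The largest differences lay side by side. On distal chromosome 7, a cluster of maternally expressed genes is kept silent on the paternal copy by the long noncoding RNA *Kcnq1ot1*, which is itself transcribed from the paternal copy. The list held 8 measured genes of this cluster. They were viewed in a wider stretch of 17 measured imprinted genes, from *Igf2* to *Ano1*, not all of which belong to the cluster. In this stretch the neighbours *Cdkn1c*, *Slc22a18* and *Phlda2* were the ones with a difference above 0.4. The next measured genes on either side, *Kcnq1* (-0.09, 95% interval -0.20 to 0.02) and *Nap1l4* (-0.12, -0.22 to -0.03), had differences of the opposite sign and were not called.

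*Slc22a18* encodes a transporter-like membrane protein. Its log2 signal was 8.75, 8.70, 8.75, 8.75, 8.59 and 8.85 in the *Ppara*-/- livers (mice 1 to 6), against 8.39, 8.31, 8.37, 8.14, 8.28 and 8.32 in the *Ppara*+/+ livers. All 6 *Ppara*-/- livers stood above all 6 *Ppara*+/+ livers, and both genotypes were tight (8.73 ± 0.09 and 8.30 ± 0.09, SD, n = 6 each). The difference of 0.43 ± 0.05 (SE) was 1.35-fold (limma adjusted p = 1.9e-04). It was the imprinted gene with the smallest p, and its call remained in every fit of all 12 livers with limma and whichever liver was left out.

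*Cdkn1c* encodes p57, an inhibitor of cyclin-dependent kinases. The log2 signal was 9.88, 10.76, 10.67, 11.07, 10.99 and 10.82 in *Ppara*-/- livers, against 9.09, 9.09, 9.34, 9.28, 10.49 and 10.80 in *Ppara*+/+ livers. Wild-type mice 1 to 4 were low, whereas wild-type mice 5 and 6 lay among the *Ppara*-/- livers, and mouse 1 was the lowest *Ppara*-/- liver. The mean was 10.70 ± 0.43 in *Ppara*-/- livers and 9.68 ± 0.76 in *Ppara*+/+ livers (SD, n = 6 each), a 2.02-fold difference that was not called (limma adjusted p = 0.054). Within a genotype *Cdkn1c* varied more than 99.8% of all genes. It was called without *Ppara*-/- mouse 1 (1.18, adjusted p = 0.016), without *Ppara*+/+ mouse 5 (1.18, 0.030) and without *Ppara*+/+ mouse 6 (1.24, 0.0084).

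*Phlda2* encodes a small pleckstrin-homology protein that limits growth of the placenta. Log2 signals were 8.40, 8.68, 8.57, 8.86, 8.60 and 8.66 in *Ppara*-/- livers, against 8.00, 7.85, 8.19, 7.82, 8.59 and 8.77 in *Ppara*+/+ livers. The same wild-type mice, 5 and 6, were high as for *Cdkn1c*, and wild-type mice 1 to 4 were below every *Ppara*-/- liver. The difference was 0.42 ± 0.15 (SE), with a limma adjusted p of 0.10. The wild-type livers fell into 2 separate clusters for both genes. A correlation of *Cdkn1c* with *Phlda2* was computed, but it cannot separate these clusters from a relation over single livers. It is therefore not given.

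**Figure D2:**
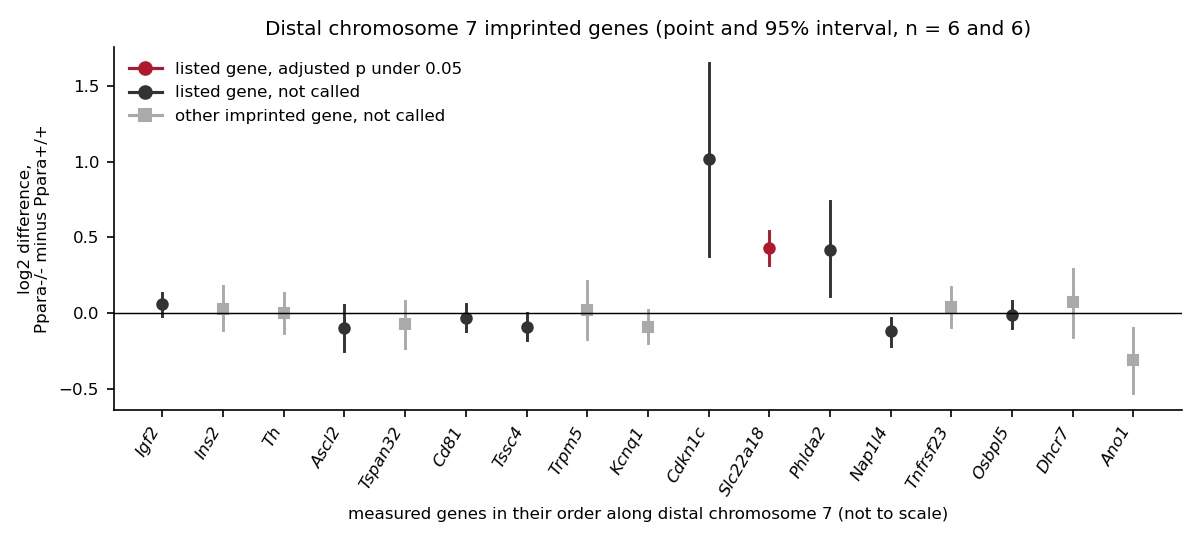
Difference in log2 signal, *Ppara*-/- minus *Ppara*+/+, with 95% intervals (6 livers of each genotype). The 17 measured imprinted genes from *Igf2* to *Ano1* on distal chromosome 7 are in their order along the chromosome, and distances are not to scale. *Inpp5f*, listed on distal chromosome 7 as a domain of its own, is not shown. Circles are genes of the list and grey squares are other imprinted genes. *Cdkn1c* (1.02), *Slc22a18* (0.43) and *Phlda2* (0.42) stand above the rest.

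The promoter windows of this cluster are printed to show how unlike they are in CpG content, the pairs of bases that carry methylation. Each window holds the 300 bases around a transcript start in RefSeq (GRCm38.p6), most of them before it, is written 5′ to 3′ along the gene and has its CpG pairs in capitals. *Slc22a18* lies at chr7:143473539-143473838 on the plus strand with 2 CpG pairs, *Phlda2* at chr7:143502475-143502774 on the minus strand with 26, and *Kcnq1ot1* at chr7:143296498-143296797 on the minus strand with 9.
Slc22a18: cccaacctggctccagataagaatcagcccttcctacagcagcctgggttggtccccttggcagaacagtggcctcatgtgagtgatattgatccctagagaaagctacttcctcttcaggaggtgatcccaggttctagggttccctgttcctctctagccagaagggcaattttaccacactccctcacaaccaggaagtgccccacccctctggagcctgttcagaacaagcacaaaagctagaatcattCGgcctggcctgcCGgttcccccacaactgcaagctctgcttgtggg
Phlda2: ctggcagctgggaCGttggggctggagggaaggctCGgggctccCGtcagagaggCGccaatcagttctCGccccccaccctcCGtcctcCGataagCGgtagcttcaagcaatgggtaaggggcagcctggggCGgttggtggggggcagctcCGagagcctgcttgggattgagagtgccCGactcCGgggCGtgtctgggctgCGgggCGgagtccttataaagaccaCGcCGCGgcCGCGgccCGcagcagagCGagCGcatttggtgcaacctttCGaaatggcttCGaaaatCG
Kcnq1ot1: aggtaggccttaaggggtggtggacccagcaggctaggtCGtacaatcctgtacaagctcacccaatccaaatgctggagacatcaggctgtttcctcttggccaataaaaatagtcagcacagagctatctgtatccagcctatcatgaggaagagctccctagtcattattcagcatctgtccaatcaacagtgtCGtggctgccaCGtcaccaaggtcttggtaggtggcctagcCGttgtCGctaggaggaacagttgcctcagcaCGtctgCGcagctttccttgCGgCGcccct

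The same windows were read for 32 of the 41 measured genes, 48 windows in all, some of which overlap. Windows on chromosome 18, where *Impact* lies, were left out for the listed genes but kept among all windows. *Cdkn1c*, *Peg10* and *Trappc9* had no entry. The median window of the imprinted genes held 15 CpG pairs, against 7 over all 32851 windows. The half-site AGGTCA, on either strand, was present in 4 windows (8.33%, against 16.3% of all windows), those of *Airn*, *Ddc*, *Igf2* and *Igf2r*. PPARα binds with its partner RXR to 2 such half-sites with 1 base between them, and this exact repeat was in 0 of the 48 windows and in 13 of all windows (0.0396%). The hexamer TGCCGC, on either strand, which ZFP57 binds when it is methylated to keep imprints, was present in 14 windows (29.2%, against 11.6% of all windows). This hexamer itself holds a CpG pair, and these shares do not allow for the higher CpG content of the imprinted windows. Overlapping windows of *Mest* that hold it are counted apart. The printed windows of *Slc22a18*, *Phlda2* and *Kcnq1ot1* held neither the half-site nor the hexamer. These are matches of letters and not sites shown to be bound.

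The other measured genes of the cluster from the list were not called. *Cd81*, a tetraspanin gene, differed by -0.03, *Tssc4*, whose product serves small nuclear ribonucleoproteins, by -0.09, *Ascl2*, a transcription factor gene of the placenta, by -0.10, and *Osbpl5*, a relative of the oxysterol-binding proteins, by -0.01. *Nap1l4*, a histone chaperone gene, had 5 of 6 *Ppara*-/- livers below all *Ppara*+/+ livers, with a limma adjusted p of 0.11.

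Before the cluster in the order along the chromosome lies *Igf2*, the fetal growth factor gene. Its log2 signal was 13.28, 13.25, 13.27, 13.27, 13.27 and 13.27 in *Ppara*-/- livers, against 13.23, 13.24, 13.22, 13.24, 13.16 and 13.20 in *Ppara*+/+ livers. The genotypes did not overlap, but the difference was 0.06 (95% interval -0.02 to 0.13), which was 1.04-fold and not called (limma adjusted p = 0.40). Its spread within a genotype was lower than in all but 0.0853% of the genes. The highest value on any array was 13.91, and whether the *Igf2* probes were near saturation was not tested.

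The other 2 called genes lie on chromosomes 6 and 15. *Peg10* encodes a protein derived from a retrotransposon, and mouse embryos that lack it die with a failed placenta. Its log2 signal was 9.51, 9.76, 9.74, 9.90, 9.77 and 9.67 in *Ppara*-/- livers, against 9.25, 9.32, 9.20, 9.41, 9.36 and 9.46 in *Ppara*+/+ livers. Every *Ppara*-/- liver stood above every *Ppara*+/+ liver, and mouse 1 was again the lowest of its genotype. The difference was 0.39 ± 0.06 (SE), or 1.31-fold, with a limma adjusted p of 0.0021.

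All 5 measured genes of the domain had a positive difference, beside 53.5% of all genes, and *Peg10* was the one called. *Sgce*, the epsilon-sarcoglycan gene that starts beside *Peg10* on the other strand and is paternally expressed like it, differed by 0.01 (95% interval -0.07 to 0.09). The maternally expressed genes of the domain were *Ppp1r9a* (0.04), *Calcr* (0.10) and *Asb4* (0.16). *Calcr* and *Asb4* were of dim signal. *Asb4* had 4 of 6 *Ppara*-/- livers above all *Ppara*+/+ livers (limma adjusted p = 0.25). The differences of these genes from *Peg10* were not tested. Across the 12 livers, deviations of *Peg10* and *Sgce* from their genotype means had a Pearson r of 0.17 and a Spearman rho of 0.17 (permutation p = 0.61 for each, also when adjusted over the 3 pairs computed, of which the other 2 held livers in clusters). Without the 2 livers farthest from the median of *Peg10*, r was 0.35. It was 0.41 within the 6 lowest and -0.18 within the 6 highest animal numbers.

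*Trappc9* encodes a subunit of the TRAPP complex of membrane traffic, and its imprinting is known from the mouse brain. Its log2 signal was 8.06, 8.47, 8.45, 8.66, 8.46 and 8.51 in *Ppara*-/- livers, against 8.00, 8.07, 8.09, 7.89, 8.07 and 8.21 in *Ppara*+/+ livers. In *Ppara*-/- mice 2 to 6 the signal was above that of every *Ppara*+/+ liver, whereas mouse 1 lay within the wild-type range. The difference was 0.38 ± 0.08 (SE), or 1.30-fold, with a limma adjusted p of 0.014. With the mean of the macrophage markers as a covariate it was 0.34 and no longer called (adjusted p = 0.085), the one fit of all 12 livers with limma in which a call among the imprinted genes was lost. *Kcnk9*, its partner in the domain and a gene of dim signal, encodes a potassium channel and differed by -0.01.

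**Figure D3:**
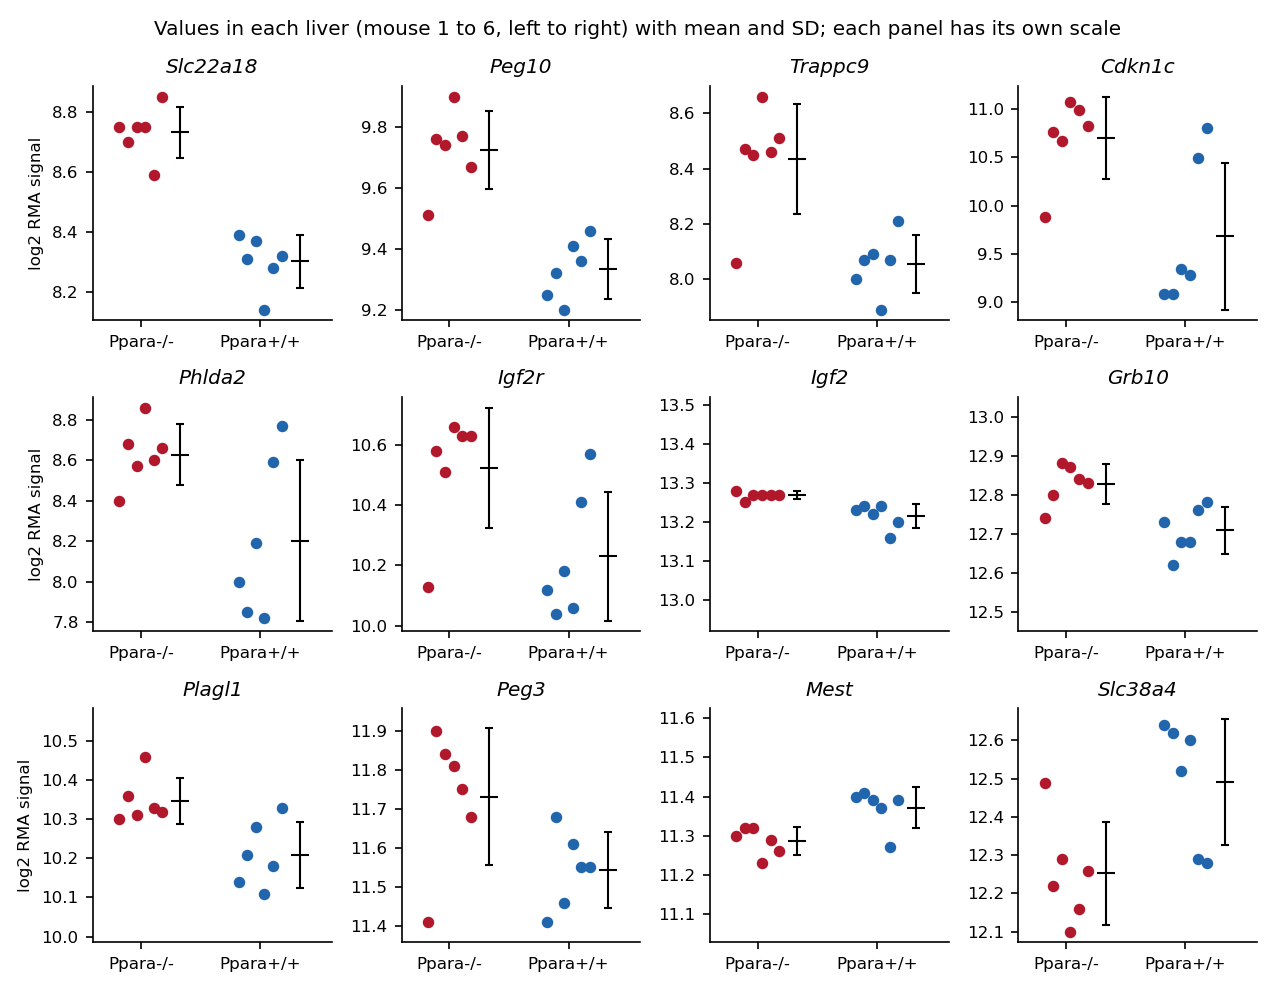
Log2 signal of 12 imprinted genes in each liver, *Ppara*-/- in red and *Ppara*+/+ in blue, mice 1 to 6 from left to right within a genotype, with the mean and SD in black; each panel has its own scale. *Slc22a18*, *Peg10* and *Igf2* do not overlap between the genotypes, and *Ppara*+/+ mice 5 and 6 lie among the *Ppara*-/- livers for *Cdkn1c*, *Phlda2*, *Igf2r* and *Slc38a4*.

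Of the 7 listed genes best known for growth control, 6 were measured. Among these 0 were called, beside 3.42% of all genes higher and 3.82% lower. The difference was positive in 5, beside 53.5% of all genes. Besides *Cdkn1c*, *Phlda2* and *Igf2*, the measured genes were *Igf2r*, *Grb10* and *Mest*. *Igf2r*, the receptor that clears IGF2, had a log2 signal of 10.13, 10.58, 10.51, 10.66, 10.63 and 10.63 in *Ppara*-/- livers, against 10.12, 10.04, 10.18, 10.06, 10.41 and 10.57 in *Ppara*+/+ livers. As for *Cdkn1c*, *Ppara*-/- mouse 1 was low and *Ppara*+/+ mice 5 and 6 were high. The difference was 0.29 ± 0.10 (SE), with a limma adjusted p of 0.11. It was called without *Ppara*-/- mouse 1 (0.37, adjusted p = 0.014) and without *Ppara*+/+ mouse 6 (0.36, 0.029).

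*Airn*, the noncoding RNA that runs antisense to *Igf2r* on the paternal copy and silences it there, ranged between 9.03 and 9.60 in *Ppara*-/- livers and between 8.98 and 9.44 in *Ppara*+/+ livers, a difference of 0.16 (limma adjusted p = 0.37). As for *Cdkn1c* and *Phlda2*, no correlation of *Igf2r* with *Airn* is given, because wild-type mice 5 and 6 stood apart for *Igf2r*. Labelling was of the sense strand, and signal of 1 gene in the other's probeset was not tested for. *Slc22a2*, an organic cation transporter gene at the same locus, differed by -0.16 and was not called.

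*Grb10* encodes an adaptor that dampens signals of the insulin and IGF receptors. Log2 signals were 12.74, 12.80, 12.88, 12.87, 12.84 and 12.83 in *Ppara*-/- livers, against 12.73, 12.62, 12.68, 12.68, 12.76 and 12.78 in *Ppara*+/+ livers. In 5 of 6 *Ppara*-/- livers it was above every *Ppara*+/+ liver, by a small margin. The difference of 0.12 was not called (limma adjusted p = 0.11). *Ddc*, the decarboxylase gene next to it, differed by -0.05.

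*Mest*, which encodes an enzyme-like membrane protein and is widely active in growing mesodermal tissue, had a log2 signal of 11.30, 11.32, 11.32, 11.23, 11.29 and 11.26 in *Ppara*-/- livers, against 11.40, 11.41, 11.39, 11.37, 11.27 and 11.39 in *Ppara*+/+ livers. Of the wild-type livers, only mouse 5 lay within the *Ppara*-/- range. The difference was -0.09, with a limma adjusted p of 0.22. In the same domain, *Copg2*, a coatomer gene, differed by -0.03 and *Klf14*, a Krüppel-like factor gene, by 0.01.

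Of 5 measured transcription factors, 4 had a positive difference, beside 53.5% of all genes, and 0 were called. *Plagl1*, a zinc-finger gene that in mice drives several other imprinted genes, had a log2 signal of 10.30, 10.36, 10.31, 10.46, 10.33 and 10.32 in *Ppara*-/- livers, against 10.14, 10.21, 10.28, 10.11, 10.18 and 10.33 in *Ppara*+/+ livers. Only wild-type mouse 6 reached the *Ppara*-/- range. The difference of 0.14 was not called (limma adjusted p = 0.098).

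*Peg3*, a zinc-finger gene, had a log2 signal of 11.41, 11.90, 11.84, 11.81, 11.75 and 11.68 in *Ppara*-/- livers, against 11.41, 11.68, 11.46, 11.61, 11.55 and 11.55 in *Ppara*+/+ livers. In each genotype mouse 1 was the lowest. The difference was 0.19 (limma adjusted p = 0.16), and without *Ppara*-/- mouse 1 it was 0.25 and called (adjusted p = 0.010). Across the limma alternatives with all 12 livers or without 1, its adjusted p reached 0.43. *Zim1*, its maternally expressed neighbour, ran between 8.63 and 9.58 in *Ppara*-/- livers and between 8.82 and 9.37 in *Ppara*+/+ livers, a difference of 0.14. *Usp29*, a deubiquitinase gene at the same locus, differed by 0.07.

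The transporter gene *Slc38a4*, which carries amino acids into hepatocytes, had the most negative difference of the list. Its log2 signal was 12.49, 12.22, 12.29, 12.10, 12.16 and 12.26 in *Ppara*-/- livers, against 12.64, 12.62, 12.52, 12.60, 12.29 and 12.28 in *Ppara*+/+ livers. The pattern over livers was that of *Cdkn1c* turned over, with *Ppara*-/- mouse 1 high and *Ppara*+/+ mice 5 and 6 low. The difference was -0.24 ± 0.08 (SE), with a limma adjusted p of 0.085. It was called without *Ppara*-/- mouse 1 (-0.29, adjusted p = 0.021) and without *Ppara*+/+ mouse 6 (-0.28, 0.034). Across the limma alternatives with all 12 livers or without 1, its adjusted p reached 0.25.

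The remaining genes showed little. On central chromosome 7, *Ndn*, a growth suppressor gene of the MAGE family, differed by -0.18 (8.09 ± 0.07 in *Ppara*-/- livers and 8.27 ± 0.18 in *Ppara*+/+ livers, SD, n = 6 each), and *Magel2*, *Mkrn3* and *Peg12* by 0.03, 0.08 and 0.02. *Impact*, whose product restrains the kinase GCN2, differed by 0.12 and was called without *Ppara*-/- mouse 1 (0.18, adjusted p = 0.047). Across the limma alternatives with all 12 livers or without 1, its adjusted p reached 0.74. *Dcn*, which encodes the matrix proteoglycan decorin, differed by -0.09. *Commd1*, *Inpp5f*, *Nap1l5*, *Nnat*, *Rasgrf1* and *Zdbf2* differed by 0.02, -0.02, -0.05, -0.01, 0.02 and 0.05. Of the 41 genes, 12 had a mean signal below 6.71, the median of the dimmest array, where a change is harder to see, and none of these was called. They were *Asb4*, *Ascl2*, *Calcr*, *Kcnk9*, *Magel2*, *Mkrn3*, *Nap1l5*, *Peg12*, *Rasgrf1*, *Slc22a2*, *Usp29* and *Zdbf2*.

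The uneven values of *Cdkn1c* and *Phlda2* went along with the animal number in the labels. The 6 lowest numbers were *Ppara*-/- mice 1 and 2 and *Ppara*+/+ mice 1 to 4, and the 6 highest were *Ppara*-/- mice 3 to 6 and *Ppara*+/+ mice 5 and 6. The labels do not say what the number marks, and all 6 livers with the highest numbers were female. For *Cdkn1c* the mean was 10.32 in *Ppara*-/- and 9.20 in *Ppara*+/+ livers among the lowest numbers, a difference of 1.12, and 10.89 in *Ppara*-/- and 10.65 in *Ppara*+/+ livers among the highest, a difference of 0.24. For *Phlda2* the differences were 0.57 among the lowest and -0.01 among the highest numbers. The mean of the megakaryocyte markers was lower among the highest numbers in each genotype. That of the endothelial markers was lower there in *Ppara*+/+ livers, and overlapped between the sets in *Ppara*-/- livers. The means of the hepatocyte, erythroid, stromal, macrophage, granulocyte and bile duct markers overlapped between the sets in each genotype. The mean of the megakaryocyte markers was 10.43 to 10.49 in *Ppara*-/- and 10.32 to 10.48 in *Ppara*+/+ livers among the lowest numbers, and 10.19 to 10.39 in *Ppara*-/- and 10.16 to 10.18 in *Ppara*+/+ livers among the highest. The mean of the endothelial markers was 9.37 to 9.46 in *Ppara*-/- and 9.51 to 9.60 in *Ppara*+/+ livers among the lowest numbers, and 9.35 to 9.46 in *Ppara*-/- and 9.33 to 9.37 in *Ppara*+/+ livers among the highest. The part of these markers in the result was not tested.

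The 3 called genes had positive differences in both sets. For *Slc22a18* and *Peg10*, whose genotypes do not overlap over all livers, this sign was fixed in advance. *Slc22a18* differed by 0.42 among the lowest and 0.43 among the highest numbers, *Peg10* by 0.34 and 0.36, and *Trappc9* by 0.25 and 0.38. None passed the threshold within the 6 livers of either set (*Slc22a18*, adjusted p = 0.080 and 0.055 with limma). The difference of the genotype effect between the sets was itself fitted with limma, a test added after the data were seen. It was -0.88 ± 0.27 (SE) for *Cdkn1c* (limma adjusted p = 0.93), -0.58 ± 0.17 for *Phlda2* (0.93) and 0.01 ± 0.12 for *Slc22a18*. It was called for 0 of 19938 genes, with 987 at an unadjusted p under 0.05, and for 0 of the 41 imprinted genes, with 3 at an unadjusted p under 0.05 (*Cdkn1c*, *Phlda2* and *Ddc*). With the 2 sets of numbers as a block *Cdkn1c* was called at 0.68 (limma adjusted p = 0.044), and *Phlda2* (0.28, 0.21), *Igf2r* (0.19, 0.20) and *Slc38a4* (-0.16, 0.15) were not. With the number itself as a covariate *Cdkn1c* was called (0.91, adjusted p = 6e-05), as were *Igf2r* (0.26, 0.011), *Phlda2* (0.38, 0.019) and *Slc38a4* (-0.22, 0.0096). With the sex score added to it, *Phlda2* was no longer called (0.34, 0.051).

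Sex differed between the genotypes along with the number. Among the female wild-type livers, *Cdkn1c* was 9.09 in mouse 1, 10.49 in mouse 5 and 10.80 in mouse 6, and among the male wild-type livers it was 9.09, 9.34 and 9.28 in mice 2, 3 and 4. In the 5 *Ppara*-/- and 3 *Ppara*+/+ female livers alone, *Slc22a18* was the imprinted gene called, and *Peg10* (0.36, adjusted p = 0.13) and *Trappc9* (0.33, 0.33) were not.

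**Figure D4:**
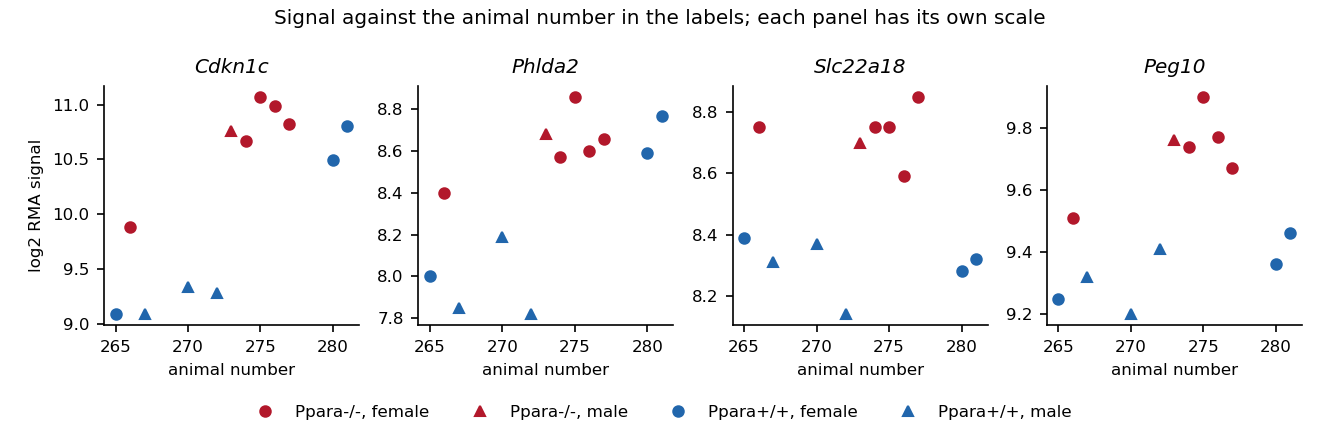
Log2 signal of 4 imprinted genes against the animal number in the labels, *Ppara*-/- in red and *Ppara*+/+ in blue, circles for female and triangles for male livers; each panel has its own scale. *Cdkn1c* and *Phlda2* are high in the 2 *Ppara*+/+ animals with the highest numbers. *Slc22a18* and *Peg10* do not overlap between the genotypes over all livers, so that no part of the range could show an overlap.

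Genes that work with the imprinted ones were followed from lists of their own. The counts below stand beside 3.42% of all genes higher and 3.82% lower. Of 15 measured genes of the IGF axis, *Irs1* (0.28), an adaptor of the insulin and IGF1 receptors, and *Igf1r* (0.22), the receptor for IGF1 and IGF2, were higher. *Igfbp2*, a binding protein that holds IGFs in the fetal circulation, was lower by 1.30 on the log2 scale, at 9.54 to 10.95 in *Ppara*-/- livers and 10.69 to 11.81 in *Ppara*+/+ livers (limma adjusted p = 0.0036). It differed by -1.12 among the lowest and -1.01 among the highest animal numbers. Of 25 measured factors that keep or erase imprints, the dioxygenase genes *Tet1* and *Tet2* were higher, by 0.32 each (adjusted p = 0.014 for both), and 23 were not called.

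Of 32 other measured imprinted genes, 2 were higher, *Cobl* (0.18) and *Smoc1* (0.17), and 1 was lower, *Qpct* (-1.68, limma adjusted p = 4.7e-07), which encodes glutaminyl cyclase and is imprinted in the placenta. *Qpct* ran between 6.83 and 7.41 in *Ppara*-/- livers and between 8.18 and 8.89 in *Ppara*+/+ livers. In the *Dlk1*-*Dio3* region, 3 of 6 measured genes were higher: *Dlk1* by 0.42, *Meg3* by 0.51 and *Rian* by 0.46. *Dlk1* differed by 0.44 among the lowest and 0.17 among the highest animal numbers.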

How the data were processed

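Whole-liver RNA of 12 fetuses was hybridized to Affymetrix whole-transcript mouse arrays. For 35556 probesets the authors deposited log2 values from RMA. Neither its version nor a genome build is named in the sources used here. Arrays carry no read depth, so that precision is limited by their number, 6 per genotype, and array medians ran between 6.71 and 6.75. Probesets were named through a table of the platform, in which 21789 had 1 gene symbol, 1621 had several and 12146 had none, and 19938 genes remained with the brightest probeset of each and no filter on dim signal. Levels of different genes are not compared with each other.

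Genotypes were compared without covariates in limma 3.58.1 (R 4.3.3; lmFit, then eBayes, two-sided). Benjamini-Hochberg adjustment ran over the 19938 genes, and genes with an adjusted p under 0.05 were called. The procedure was tested on simulated data. Sex was read from *Xist* against Y-linked genes. Permutation tests used 100000 resamples. The parental copy, the domain, the class and the fetal or restricted imprinting of each gene were assigned from general knowledge of the mouse. The genes, lists and tests were chosen with earlier results of these data known. Values in every liver were given for the called genes, the 4 uncalled genes with the smallest p, and *Igf2*, *Cdkn1c*, *Igf2r*, *Grb10*, *Plagl1*, *Mest* and *Peg3*. Gene order came from RefSeq (GRCm38.p6). The alternatives were another normalization, filters on dim signal, other probeset rules, other limma settings, covariates for sex, animal number and cell types, the exact Mann-Whitney test and the omission of each liver. The fit with the sex score and the animal number together, the female livers alone and the test of the genotype effect between the animal numbers were added after the data were seen.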

Additional observations from a re-analysis of the deposited data

Results flagged for a closer look

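In 7 of 84 groups of 6 livers (each measured imprinted gene and *Ppara*, in each genotype), 1 liver stood far from the other 5, and by chance about 5% of groups would show this. *Ppara*-/- mouse 1 was the low liver in 4 of them. It had a log2 signal of 9.88 for *Cdkn1c*, against 10.67 to 11.07 in the other *Ppara*-/- livers. It had 10.13 for *Igf2r*, against 10.51 to 10.66. It had 8.06 for *Trappc9*, against 8.45 to 8.66. It had 8.63 for *Zim1*, against 9.28 to 9.58. *Ppara*-/- mouse 3 had 4.85 for *Mkrn3*, against 4.61 to 4.68 in the others of its genotype, a gene of very dim signal. *Ppara*+/+ mouse 5 had 11.27 for *Mest*, against 11.37 to 11.41, and *Ppara*+/+ mouse 3 had 5.35 for *Zdbf2*, against 4.74 to 4.96.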

How the results depend on the processing

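The calls of *Slc22a18* and *Peg10* remained in each limma fit of all 12 livers, and that of *Trappc9* in all but the fit with the macrophage score. More imprinted genes were called, higher and lower, among genes above the 50th percentile of signal (6 and 2), with array weights (8 and 2), with the animal number as a covariate (6 and 1) and with the animal number and the sex score (5 and 1), against 3 and 0. Fewer were called in smaller or rank-based comparisons: 0 higher and 0 lower within the 6 lowest and within the 6 highest animal numbers, 1 and 0 in female livers, and 0 with the exact Mann-Whitney test after adjustment, by which 13 of the 41 had an unadjusted p under 0.05. Leaving out 1 liver gave 3 to 7 higher and 0 to 1 lower, with 7 and 1 without *Ppara*-/- mouse 1 and without *Ppara*+/+ mouse 6, and *Ppara* stayed between -1.03 and -0.98.

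Over all genes, where 682 were higher and 761 lower, array weights gave 1286 and 1457, the sex score 401 and 449, the macrophage score 185 and 475, a block for the lower and the upper 6 animal numbers 422 higher, the lowest numbers alone 30 and 163, the highest alone 117 and 106, the female livers 30 and 126, and the Mann-Whitney test 0 and 0 (3681 at an unadjusted p under 0.05). Leaving out 1 liver gave 384 to 1374 higher and 447 to 1147 lower, the highest counts without *Ppara*-/- mouse 1. In the other lists, 11 genes were called, against 20 with array weights, 6 with the sex score, 3 with the macrophage score, 7 with the numbers as a block, 2 and 1 within them, 1 in female livers, 0 with the Mann-Whitney test and 6 to 20 without 1 liver. By the Mann-Whitney test *Ppara* (-1.01) had an adjusted p of 0.060, the smallest it gave. The cause of these shifts was not tested.

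The mouse numbers of the titles were not taken as pairs, since the labels do not say what they share and 2 of the 6 same-numbered pairs correlated at under 0.1. Deviations of same-numbered mice correlated at 0.02 to 0.39, all above 0, with the own number the best match for 3 of 6. With the mouse number as a replicate block 4 imprinted genes were higher and 0 lower, the added one being *Cdkn1c* (adjusted p = 0.020), and 796 of all genes were higher and 823 lower. *Cdkn1c* was also called after renewed quantile normalization (0.048), above the 25th percentile of signal (0.044) and with the stromal score (0.048). Of 1291 values of single imprinted genes under 32 alternatives, 78 changed sign, in 21 genes, with a size of at most 0.17, and 0 of these were called either way.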
